A study of Arabidopsis thaliana with 9 samples.

Results

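The plastid-encoded photosynthesis genes are the genes of the chloroplast genome whose products sit in photosystem II, photosystem I, the cytochrome b6f complex, the ATP synthase, the NAD(P)H dehydrogenase-like (NDH) complex and Rubisco. They were chosen by name, as the plastid psb, psa, pet, atp and ndh genes and rbcL, and not by their values. Of 45 identifiers listed, 44 were among the 22254 genes of the count table: 15 of photosystem II, 5 of photosystem I, 6 of cytochrome b6f, 6 of the ATP synthase, 11 of NDH and rbcL. The one left over, ATCG01250, is the second copy of ndhB in the inverted repeat of the plastid genome and was not analysed here, and the copy ATCG00890 is called ndhB.1. RNA was counted in whole Arabidopsis thaliana seedlings of the ecotype Columbia-0, 2 weeks old, in 3 libraries each of the wild type (wt) and of the lines clpp2-1 and clpp2-2. Both lines are labelled as knock-outs of CLPP2, a nuclear gene for the proteolytic subunit of the mitochondrial Clp protease, which is a different protein from the Clp subunit encoded in the plastid. All seedlings grew in shaken liquid medium with 16 h of light and 8 h of dark, and the labels give no other treatment. Nor do they give the insertion sites or say whether replicates came from separate cultures, so p-values here measure the spread among these samples only, which may be technical. Seedlings contain many cell types, and in such bulk RNA fewer cells of a type and less RNA per cell cannot be told apart.

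The chloroplast keeps a small genome from its cyanobacterial ancestor, and the core subunits of the photosynthetic complexes are still encoded there, whereas most peripheral subunits, the light-harvesting proteins and the Rubisco small subunit are made from nuclear genes. A bacterial-type polymerase, with plastid-encoded core subunits and nuclear-encoded sigma and associated factors, transcribes most of these genes, and a phage-type polymerase from the nucleus transcribes others. Many lie in transcription units that are copied into 1 long RNA and then cut, spliced and edited by nuclear-encoded RNA-binding proteins and nucleases, so that the amount of each messenger depends on both its synthesis and its stability. Plastid messengers carry no stable poly(A) tail, and a tail added to them marks the RNA for decay. The labels describe total RNA and random hexamer primers and do not say whether poly(A) RNA was selected, so the levels below describe counts in these libraries.

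The count table pairs no gene symbol with a plastid identifier. Symbols were assigned from a list of the standard Arabidopsis nomenclature, and all 45 found an entry of the same symbol in RefSeq TAIR10.1, where the order of the identifiers equals the order of the genes along the plastid genome of 154478 bases. Several neighbours share bases or features that bear on how reads can be counted. The end of psbD and the start of psbC, a pair on which the results below turn, are read in different frames over 53 shared bases. The coding regions of atpB and atpE, the pair with the largest counts, share 4 bases, ATGA, in which the start ATG of atpE overlaps the stop TGA of atpB. The coding sequence of atpB also holds the longest run of A in any of these genes, 10 bases, while the runs of the others are at most 8 bases. The start codon of ndhD is printed as ACG in the genome, a site known in Arabidopsis to be edited to AUG in the RNA. These stretches are shown 5′ to 3′ on the gene's strand, with capitals for the shared bases, the A run and the start codon.
psbD end and psbC start, plastid:33708-33784, plus strand: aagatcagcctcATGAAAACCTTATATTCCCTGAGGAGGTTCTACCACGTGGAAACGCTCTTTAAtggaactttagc
atpB end and atpE start, plastid:52640-52683, minus strand: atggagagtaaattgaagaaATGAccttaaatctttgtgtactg
atpB longest A run, plastid:54081-54130, minus strand: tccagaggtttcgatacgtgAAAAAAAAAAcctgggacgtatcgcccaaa
ndhD start, plastid:117138-117167, minus strand: ACGaatgattttccttggttaacaataatt

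The libraries were of nearly equal depth, with 36043744 to 36477053 deposited counts each. The targeted gene went the way the labels say: CLPP2 had 44.5, 46.5 and 42.9 CPM (counts scaled to library size) in the wild type, 5.72, 4.88 and 6.08 CPM in clpp2-1, and 4.64, 4.64 and 4.52 CPM in clpp2-2. The log2 fold change of CLPP2 was -3.0 in clpp2-1 (SE 0.0833, edgeR adjusted p = 2.38e-06) and -3.28 in clpp2-2 (SE 0.0849, adjusted p = 1.33e-06). Plastid genes took 0.356 to 0.423% of the counts in the wild type, 0.379 to 0.506% in clpp2-1 and 0.488 to 0.570% in clpp2-2, and mitochondrial genes took 0.0537 to 0.0585%, 0.0858 to 0.107% and 0.105 to 0.114%. Libraries of 1 genotype were not alike in all respects. The sum of 7 seed storage protein genes, which mark residual seed material, ran from 0.350 to 104 CPM in the wild type, from 0.896 to 12.9 CPM in clpp2-1 and from 0.632 to 1.1 CPM in clpp2-2, with 5 of the 7 at 0 in some library. The sum of 4 root genes was 29.9 to 40.5, 30.7 to 40.7 and 25 to 31.1 CPM, and 17 light-harvesting genes, marking green tissue, summed to 17376, 19715 and 26640 CPM in the wild type, to 20770 to 22454 CPM in clpp2-1 and to 22307 to 29861 CPM in clpp2-2. What part these differences have in the results was not tested, except that the counts of genes called are also given without wt 1 and clpp2-1 1, the highest library of each of those 2 genotypes for seed storage transcripts.

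The photosynthesis genes together had 1453, 1604 and 1257 CPM in the wild type, 1603, 1735.1 and 1311 CPM in clpp2-1, and 1618, 1749 and 1910 CPM in clpp2-2. The clpp2-2 libraries all lay above the wild type, the lowest of them barely so, and clpp2-1 overlapped it. Of all plastid counts these genes took 35.2, 37.5 and 36.2% in the wild type, 35.5, 34.6 and 35.0% in clpp2-1, and 33.1, 33.6 and 32.7% in clpp2-2. Their share of plastid counts, with atpB and atpE included, was thus lowest in clpp2-2. A pair of genes dominated the sum. atpB and atpE, the beta and epsilon subunits of the catalytic head of the ATP synthase, made up 59.0 to 68.1% of it in the 9 libraries. They weigh equally on the share of plastid counts, which was not computed without them. A lower share of the other photosynthesis genes in clpp2-2 is therefore not shown. Without them the sums were 485, 512 and 478 CPM in the wild type, 542, 661 and 537 CPM in clpp2-1, and 601, 671 and 657 CPM in clpp2-2, and every library of either line lay above every wild-type library.

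Per kilobase of coding sequence the wild-type levels ran from 2.2 CPM per kb for petL, a small subunit of cytochrome b6f, to those of psbM. psbM (ATCG00220), a small subunit at the dimer interface of photosystem II, stood highest at 979 ± 46.2 CPM per kb in the wild type (SD, n = 3), 1098 ± 156 in clpp2-1 and 1083 ± 336 in clpp2-2. This rank rests on division by only 105 coding bases: in CPM the wild-type means were 103 for psbM, 300 for atpE and 646 for atpB. Per kb, psbM was followed by atpE (ATCG00470) at 752 ± 159 CPM per kb and atpB (ATCG00480) at 432 ± 62.7 CPM per kb in the wild type. No wild-type library of one of these genes overlapped with those of the next. Far below came psbD, which encodes the D2 protein of the photosystem II reaction centre, at 63.4 ± 5.14 CPM per kb, and ndhK, a subunit of the NDH complex, at 67.2 ± 10.7 CPM per kb. These neighbours did not differ in the wild type beyond their spread. psbA and rbcL, whose messengers are usually among the most abundant of leaf chloroplasts, stood only in the middle. psbA, for the D1 protein, had 8.81 ± 0.751 CPM per kb, rank 27 of 44 over all libraries, and rbcL, for the Rubisco large subunit, had 9.69 ± 0.542 CPM per kb, rank 19. The median over the 44 genes was 8.99 CPM per kb for the wild type, 9.79 CPM per kb for clpp2-1 and 11.4 CPM per kb for clpp2-2.

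**Figure D1:**
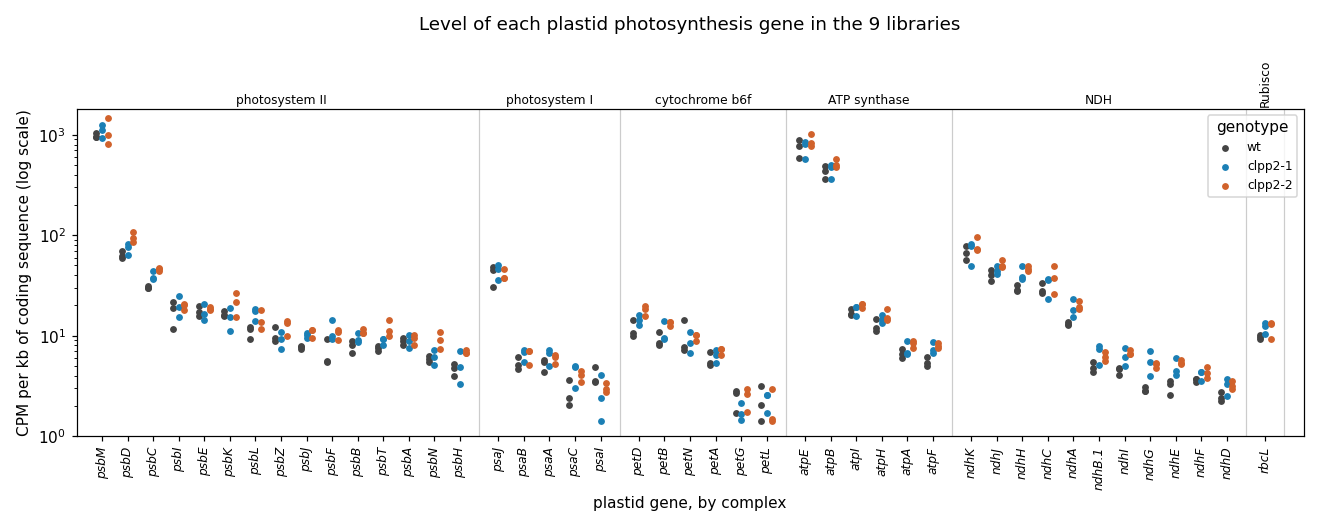
CPM per kilobase of coding sequence (log axis) of each plastid photosynthesis gene in each of the 9 libraries, ordered by complex and level, with 1 point per library coloured by genotype. psbM, atpE and atpB stand apart at the top in all libraries, psbA and rbcL lie near 10, and petL and petG are lowest.

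The genes with the fewest counts per library were those for very small subunits. petL and petG, of cytochrome b6f, had 5 to 11 and 6 to 12 counts per library, and psaI, of photosystem I, had 6 to 20. In all, 10 genes were below 1 CPM in the wild type on average, 18 had under 100 counts in some library, and 12 have under 150 coding bases. petL did not pass the filter on low counts, so 43 of the 44 genes were tested. The standard error of a log2 fold change in clpp2-2 ran from 0.0723 for psbC to 0.409 for psaI, with a median of 0.173. Copies elsewhere in the genome were few: only atpI has a nuclear copy covering at least 50% of its coding bases at 95% identity or more, on chromosome 3 at AT3G33000, a gene not in the table. The longest matches of psbA and rbcL at that identity were on chromosome 2, over 47.6 and 39.8% of their coding bases. Only the longest match of each gene was kept. Whether shorter or equal matches lie elsewhere, the mitochondrial genome included, is therefore not described.

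The first line, clpp2-1, was compared with the wild type to see whether chloroplast messengers changed along with the loss of a mitochondrial protease. No photosynthesis gene passed the test. The test called 0 of 43 genes higher and 0 lower with edgeR, where it called 0.153% of all genes tested higher and 0.0246% lower. At an unadjusted p under 0.05 there were 11 of the 43, beside 1306 of all 20294 genes tested. DESeq2 called 2 (psbC and ndhH) and limma-voom 0. The fold changes were small and mostly positive, 36 above 0 and 7 below, with a median log2 fold change of 0.21 beside -0.00 over all genes. In 11 of the 43 genes every clpp2-1 library was above every wild-type library, as in 5.17% of all genes, and in 0 it was below, as in 4.44%. The 34 other plastid genes tested, such as those for ribosomal proteins and the polymerase, had a median log2 fold change of 0.19 in clpp2-1, and the test called 0 of them. By complex the median log2 fold change in clpp2-1 was 0.47 for NDH, 0.27 for photosystem I, 0.18 for photosystem II, 0.13 for cytochrome b6f and 0.12 for the ATP synthase.

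In the second line, clpp2-2, 8 photosynthesis genes rose and none fell: psbB, psbC and psbD of photosystem II, ndhA, ndhG and ndhH of NDH, petD of cytochrome b6f and atpF of the ATP synthase. The changes were modest, from 0.48 to 0.82 on the log2 scale. In clpp2-2 the test called 5.50% of all genes higher and 4.57% lower, so 8 of 43 higher and 0 lower stand against that background. The median log2 fold change over the 43 genes was 0.36, beside -0.01 over all genes. There were 40 genes with a positive and 3 with a negative fold change. At an unadjusted p under 0.05 there were 18 of the 43, beside 5991 of all 20294 genes tested. In 21 genes every clpp2-2 library was above every wild-type library, as in 17.0% of all genes, and in 1, psaI, every clpp2-2 library was below, as in 16.7%. Of the 34 other plastid genes tested 13 rose and 0 fell, with a median log2 fold change of 0.48.

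Most of these calls were lost when single libraries were left out. The count fell from 8 to 2 without wt 1, wt 3, clpp2-2 1 or clpp2-2 3, and to 3 without clpp2-1 3 or clpp2-2 2. The count over all genes moved too, from 2044 called to 783 without wt 1, 630 without wt 3, 1175 without clpp2-1 3 and 502 to 730 without 1 of the clpp2-2 libraries, and to 4242 without wt 2, so the losses were not shown to be particular to these genes. psbC and ndhH kept their call in each of the 9 fits that left out 1 library, with adjusted p up to 0.0178 and 0.0493, and were the 2 genes called without wt 1 and clpp2-1 1. psbD was called in 5 of the 9, psbB and ndhA in 3, atpF and ndhG in 2 and petD in 1. With libraries scaled on plastid genes alone, which sets each gene against plastid RNA, 0 of the 43 were called higher or lower, 17 fold changes were positive, and the median over all genes was -0.44 on the log2 scale. The median of the photosynthesis genes was -0.08. Such scaling moves all genes by nearly the same amount, so the gap between these medians adds nothing to the main fit. The 8 rises are thus rises against all RNA, and none was shown against plastid RNA alone.

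**Figure D2:**
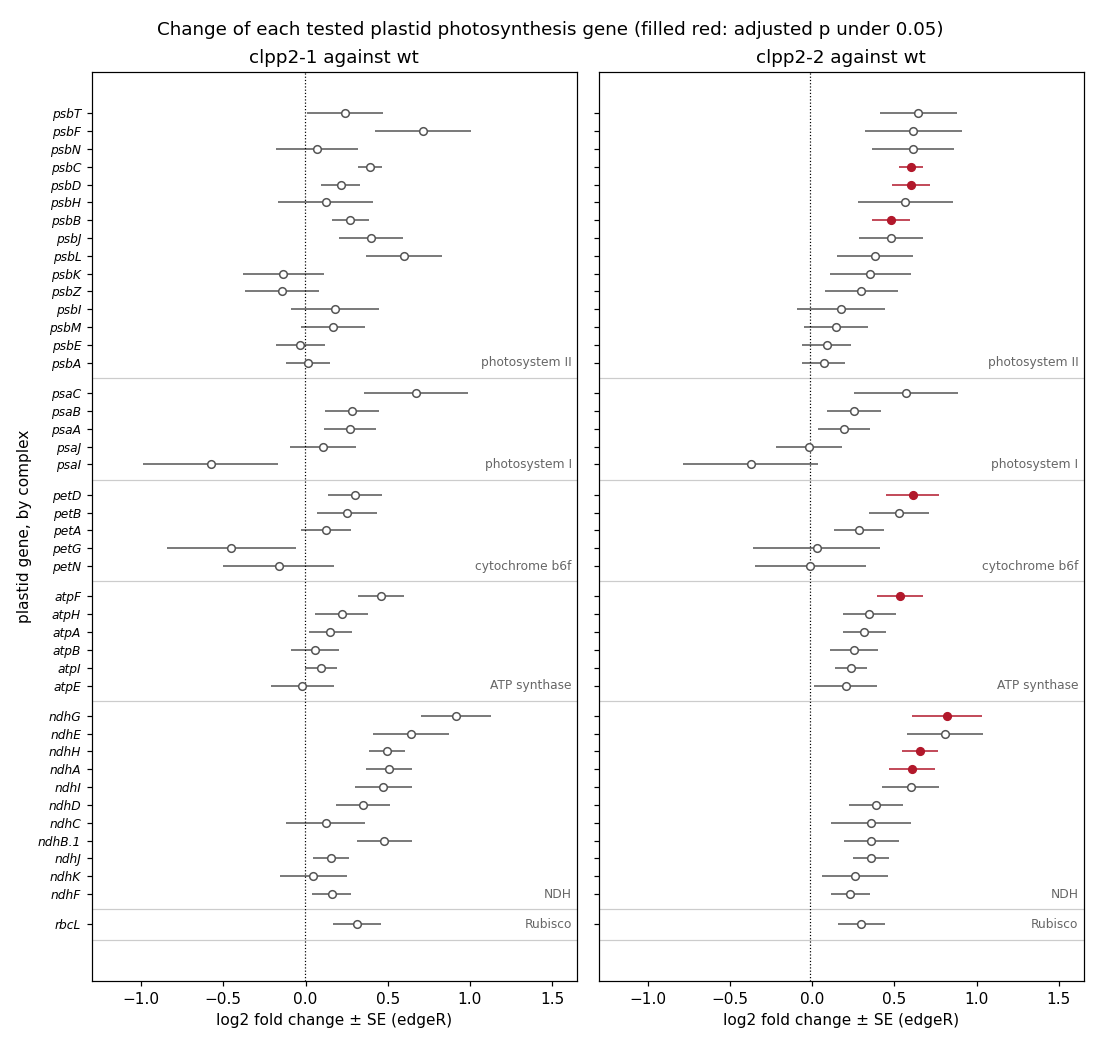
Log2 fold change ± SE from edgeR of the 43 tested plastid photosynthesis genes, by complex, in clpp2-1 (left) and clpp2-2 (right) against the wild type, with filled red points for an adjusted p under 0.05. In clpp2-2, 8 points are filled and 40 lie right of 0, and in clpp2-1 none is filled and 36 lie right of 0.

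In photosystem II, which splits water and feeds electrons into the thylakoid chain, 3 of 15 genes rose in clpp2-2, and the median log2 fold change was 0.48 (0.07 to 0.65). The genes that rose code for 2 inner antenna proteins and a reaction centre protein. psbC, for the antenna protein CP43 (ATCG00280, plastid, 33720 to 35141), had 41.9, 44.2 and 42.5 CPM in the wild type, 52, 63.0 and 53.8 CPM in clpp2-1, and 66.8, 66.1 and 62.5 CPM in clpp2-2. The 3 genotypes overlapped only between clpp2-1 and clpp2-2, and psbC rose 1.52-fold in clpp2-2 (log2 0.60, SE 0.0723, adjusted p = 0.00303). Its value in clpp2-1 was log2 0.39 (adjusted p = 0.204).

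psbD, for D2 (ATCG00270, plastid, 32711 to 33772), had 65.8, 73.4 and 62.8 CPM in the wild type, 80.5, 86.7 and 67.1 CPM in clpp2-1, and 101, 90.3 and 115 CPM in clpp2-2. All clpp2-2 libraries were higher than all others, and psbD rose 1.52-fold in clpp2-2 (log2 0.60, SE 0.117, adjusted p = 0.0201). psbC and psbD share the 53 bases printed above and 1 transcription unit, so their counts are not independent. psbB, for the antenna protein CP47 (ATCG00680, plastid, 72371 to 73897), had 10.3, 13.4 and 12.3 CPM in the wild type, 13.3, 16.4 and 13.7 CPM in clpp2-1, and 16.1, 17.6 and 16.3 CPM in clpp2-2. It rose 1.39-fold in clpp2-2 (log2 0.48, SE 0.113, adjusted p = 0.0349), with no overlap between clpp2-2 and the wild type.

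The most abundant photosystem II gene and the one for its most rapidly replaced protein were not called. psbM had 108, 99.4 and 101 CPM in the wild type, 98.1, 131 and 117 CPM in clpp2-1, and 84.8, 153 and 103 CPM in clpp2-2 (log2 0.14, SE 0.196, adjusted p = 0.666). Its clpp2-2 libraries lay on both sides of the wild type. psbA (ATCG00020), for D1, had 8.53, 9.42 and 10.1 CPM in the wild type, 8.01, 10.9 and 9.48 CPM in clpp2-1, and 10.1, 10.7 and 8.58 CPM in clpp2-2, and the genotypes overlapped fully (log2 0.07, SE 0.132, adjusted p = 0.771). psbA also had the value nearest 0 in the complex, while psbT, a low-molecular-weight subunit, had the largest value at log2 0.65 (SE 0.232, adjusted p = 0.108). psbE and psbF, the cytochrome b559 subunits, which lie next to each other, had log2 fold changes of 0.09 (SE 0.150) and 0.61 (SE 0.294) and did not pass the test.

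In photosystem I, which reduces ferredoxin, 0 of 5 genes were called in clpp2-2, and the median log2 fold change was 0.19 (-0.38 to 0.57). psaB, for one of the paired reaction centre proteins, had 10.3, 11.3 and 13.6 CPM in the wild type, 12, 15.9 and 15.0 CPM in clpp2-1, and 15.5, 15.4 and 11.2 CPM in clpp2-2. One clpp2-2 library lay within the wild-type range (log2 0.25, SE 0.163, adjusted p = 0.337). psaA, for its partner, gave log2 0.19 (SE 0.157, adjusted p = 0.450). psaI had the lowest value of all 43 genes, log2 -0.38 (SE 0.409, adjusted p = 0.582), on 6 to 20 counts per library.

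In cytochrome b6f, which passes electrons between the photosystems, 1 of 5 tested genes rose in clpp2-2, and the median log2 fold change was 0.29 (-0.01 to 0.61). petD, for subunit IV (ATCG00730, plastid, 76481 to 77672, 2 exons), had 5.13, 6.97 and 4.84 CPM in the wild type, 6.89, 7.80 and 6.16 CPM in clpp2-1, and 7.55, 8.85 and 9.49 CPM in clpp2-2. The clpp2-2 libraries all lay above the wild type, and petD rose 1.53-fold (log2 0.61, SE 0.162, adjusted p = 0.0490), just inside the threshold. petB, for cytochrome b6, the gene before it, had 5.27, 7.05 and 5.52 CPM in the wild type, 5.99, 9.16 and 6.08 CPM in clpp2-1, and 8.02, 8.77 and 8.89 CPM in clpp2-2, likewise without overlap between clpp2-2 and the wild type, but did not pass the test (log2 0.53, SE 0.183, adjusted p = 0.0997).

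In the ATP synthase, which makes ATP from the proton gradient, 1 of 6 genes rose in clpp2-2, and the median log2 fold change was 0.28 (0.20 to 0.53). atpF, for subunit b of the stalk (ATCG00130, plastid, 11529 to 12798, 2 exons), had 2.76, 3.40 and 2.96 CPM in the wild type, 4.0, 4.8 and 3.75 CPM in clpp2-1, and 4.23, 4.64 and 4.35 CPM in clpp2-2. Every library of either line was above every wild-type library, and atpF rose 1.45-fold in clpp2-2 (log2 0.53, SE 0.139, adjusted p = 0.0465) and had log2 0.46 in clpp2-1 (adjusted p = 0.758). atpB, with the largest counts of all, had 658, 734 and 547 CPM in the wild type, 721, 754 and 544 CPM in clpp2-1, and 712, 750 and 850 CPM in clpp2-2. Its groups overlapped (log2 0.25, SE 0.145, adjusted p = 0.278), as did those of atpE (log2 0.20, SE 0.193, adjusted p = 0.522).

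The NDH complex, which takes part in cyclic electron flow around photosystem I, held 3 of the 8 genes that rose, out of 11 tested, and its median log2 fold change in clpp2-2 was 0.39 (0.23 to 0.82). ndhH, for a subunit of the stromal arm (ATCG01110, plastid, 122011 to 123192), had 37.8, 32.7 and 33.9 CPM in the wild type, 45.7, 57.8 and 43.6 CPM in clpp2-1, and 51.8, 54.5 and 58.2 CPM in clpp2-2. Both lines lay wholly above the wild type, and ndhH rose 1.57-fold in clpp2-2 (log2 0.65, SE 0.110, adjusted p = 0.0117) and had log2 0.49 in clpp2-1 (adjusted p = 0.473). ndhA, for a membrane subunit (ATCG01100, plastid, 119847 to 122009, 2 exons), had 13.9, 14.1 and 14.7 CPM in the wild type, 16.5, 24.9 and 19.3 CPM in clpp2-1, and 20.2, 24.1 and 20.8 CPM in clpp2-2. It rose 1.52-fold in clpp2-2 (log2 0.61, SE 0.14, adjusted p = 0.0334), and again no library of either line overlapped the wild type.

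ndhG, for another membrane subunit (ATCG01080, plastid, 118377 to 118907), showed the largest fold change of all 43 genes in both lines. It had 1.49, 1.48 and 1.64 CPM in the wild type, 2.12, 3.71 and 2.88 CPM in clpp2-1, and 2.77, 2.86 and 2.51 CPM in clpp2-2. It rose 1.77-fold in clpp2-2 (log2 0.82, SE 0.212, adjusted p = 0.0457), and the same gene stood at log2 0.92 in clpp2-1 without passing the test (SE 0.212, adjusted p = 0.509), on 53 to 136 counts per library. With the replicate number as a block, and with limma-voom, ndhG was not called in clpp2-2. ndhK, the most abundant NDH gene, had 45.4, 52.9 and 38.4 CPM in the wild type, 52.4, 55.2 and 33.8 CPM in clpp2-1, and 49.98, 48.3 and 65.5 CPM in clpp2-2, with overlapping groups (log2 0.26, SE 0.202, adjusted p = 0.428). rbcL had 13.2, 13.9 and 14.8 CPM in the wild type, 14.8, 19.1 and 18.1 CPM in clpp2-1, and 18.9, 19.1 and 13.5 CPM in clpp2-2. The third clpp2-2 library was at the wild-type level, and rbcL did not pass the test (log2 0.30, SE 0.145, adjusted p = 0.208).

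The plastid genes were also grouped by transcription unit, 18 in all, since genes cut from the same precursor RNA share their synthesis. In clpp2-2 the highest values belonged to 1 large NDH unit and to units with photosystem II genes. The unit ndhH-ndhA-ndhI-ndhG-ndhE-psaC-ndhD had a median log2 fold change of 0.61 (0.39 to 0.82) over 7 genes, 3 of them called and 6 with every clpp2-2 library above every wild-type library. All 3 called NDH genes thus lie in this unit, while ndhC-ndhK-ndhJ, ndhB.1 and ndhF, transcribed elsewhere, had medians of 0.36, 0.36 and 0.23 with 0 called. In psbD-psbC-psbZ the genes psbD and psbC gave 0.60 each and psbZ 0.30. In psbB-psbT-psbH-petB-petD the median was 0.57 (0.48 to 0.65), and in 5 of 5 genes every clpp2-2 library was above every wild-type library, 2 of them called. These counts by unit stand beside 17.0% of all genes with every clpp2-2 library above the wild type and 5.50% called higher. psbN, which lies on the opposite strand between psbT and psbH, gave log2 0.61 (SE 0.249, adjusted p = 0.142). Whether the libraries kept strand is not stated, and without it reads from psbN and from the RNA across from it cannot be told apart.

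Other units moved less. psbE-psbF-psbL-psbJ had a median log2 fold change of 0.43 (0.09 to 0.61), atpI-atpH-atpF-atpA of 0.33 (0.23 to 0.53), atpB-atpE of 0.23 and psaA-psaB of 0.22 in clpp2-2. The medians nearest 0 were those of the tested genes petG and psaJ at 0.00, petN at -0.01, psaI-petA at -0.05 (-0.38 for psaI and 0.29 for petA) and psbA at 0.07. In clpp2-1 the highest medians were 0.51 for ndhH-ndhA-ndhI-ndhG-ndhE-psaC-ndhD and 0.50 for psbE-psbF-psbL-psbJ, while psbB-psbT-psbH-petB-petD had 0.25 and psbD-psbC-psbZ 0.21. Genes of 1 unit share reads and precursors and are not independent measurements.

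**Figure D3:**
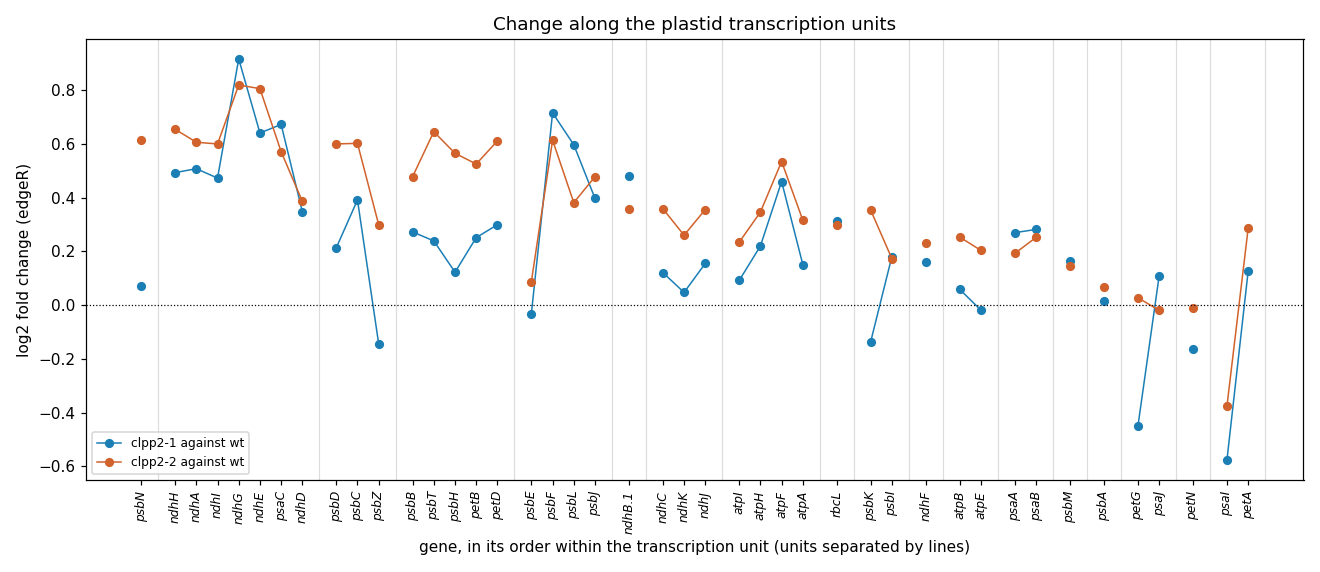
Log2 fold change against the wild type of each tested gene, in its order within its transcription unit, for clpp2-1 (blue) and clpp2-2 (orange), with units separated by vertical lines and ordered by their median in clpp2-2. The unit from ndhH to ndhD lies between 0.35 and 0.92 in both lines, and the unit from psbB to petD between 0.48 and 0.65 in clpp2-2 but between 0.12 and 0.30 in clpp2-1.

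Set against the mean of both lines, the wild type differed in 2 of the 43 genes, both higher in the mutants, and 0 were lower. The test called 0.714% of all genes higher and 0.350% lower in this comparison. psbC had log2 0.50 (SE 0.0638, adjusted p = 0.0118) and ndhH log2 0.57 (SE 0.0968, adjusted p = 0.0351), and in both all 6 mutant libraries were above all 3 wild-type libraries. That was so of 9 genes in all, as of 2.47% of all genes, and 0 genes lay wholly below, as 2.13% of all genes did. The median log2 fold change was 0.28, beside -0.01 over all genes. Without wt 1, without wt 3, and without wt 1 and clpp2-1 1 together, neither psbC nor ndhH was called, and with the replicate number as a block only psbC was. psbC alone was called without any 1 of the clpp2-2 libraries, and the count was 6 without wt 2 and 4 without clpp2-1 1. Over all genes the count, 216, fell to 77 without wt 1 and 67 without wt 3 and was 2168 without wt 2.

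The difference between the lines was tested directly, in clpp2-2 against clpp2-1. None of the 43 photosynthesis genes passed the test: 0 were called higher and 0 lower with edgeR, where it called 2.34% of all genes higher and 1.63% lower. At an unadjusted p under 0.05 there were 2 of the 43, beside 4269 of all 20294 genes tested. DESeq2 called 1 (psbD) and limma-voom 0. The median log2 difference was 0.15. psbD came to log2 0.39 (SE 0.116, adjusted p = 0.106), psbC to 0.21 (SE 0.0717, adjusted p = 0.142), ndhH to 0.16 (SE 0.108, adjusted p = 0.440) and ndhG to -0.10 (SE 0.208, adjusted p = 0.840). The calls in clpp2-2 and their absence in clpp2-1 are therefore not shown to be a difference between the lines.

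Summed over each complex, the plastid-encoded genes were at 1.31 times the wild-type mean in clpp2-2 for photosystem II (251 ± 6.02 CPM in the wild type and 329 ± 30.5 in clpp2-2, n = 3 each), 1.37 times for cytochrome b6f (18.5 ± 2.84 and 25.3 ± 2.03), 1.35 times for NDH (149 ± 9.03 and 201 ± 17.1), 1.18 times for the ATP synthase (976 ± 159 and 1152 ± 122) and 1.14 times for photosystem I (30.1 ± 4.03 and 34.1 ± 3.15). In clpp2-1 the same sums were at 1.16, 1.15, 1.22, 1.03 and 1.19 times the wild type. The photosystem II sums of both lines lay above those of the wild type without overlap, as did the NDH and cytochrome b6f sums of clpp2-2. The ATP synthase sums overlapped in both lines, but they mostly reflect atpB and atpE, at 646 and 300 CPM on average in the wild type. Of the 4 genes atpI, atpH, atpF and atpA, 3 had every clpp2-2 library above every wild-type library, as 17.0% of all genes did.

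The nuclear-encoded subunits of the same complexes were at 1.18 to 1.41 times the wild type in clpp2-2 and at 0.982 to 1.07 times in clpp2-1. Only the nuclear NDH sums of clpp2-2 lay wholly above the wild type (429 to 479 CPM beside 317 to 413 CPM). For every other complex wt 2 was above the lowest clpp2-2 library, as for Rubisco at 8333 beside 8122 CPM. In clpp2-1 the test called 0 genes of these lists, and 0 had an unadjusted p under 0.05, beside 1306 of all 20294 genes tested. In clpp2-2 the test called 5.50% of all genes higher and 4.57% lower. Of these lists, 0 of 12 of photosystem I, 1 of 12 of photosystem II, 0 of 2 of cytochrome b6f, 0 of 3 of the ATP synthase, 2 of 12 of NDH, 2 of 4 of Rubisco and 0 of 17 light-harvesting genes rose there, and none fell. Their median log2 fold changes in clpp2-2, in that order, were 0.32, 0.27, 0.35, 0.25, 0.40, 0.59 and 0.25. NDHO, a nuclear NDH subunit, had 56.2, 64.7 and 59.4 CPM in the wild type, 60.5, 64.5 and 61.0 CPM in clpp2-1, and 91.0, 92.5 and 93.4 CPM in clpp2-2. clpp2-2 stood alone, and NDHO rose there (log2 0.62, SE 0.0553, adjusted p = 0.000863) and differed between the lines (log2 0.57, adjusted p = 0.00184). PNSB2, another nuclear-encoded NDH subunit, also rose in clpp2-2 (log2 0.57, adjusted p = 0.0277), as did PSB28, a photosystem II assembly factor (log2 0.39, adjusted p = 0.0417). NDHO was called in each of the 9 fits that left out 1 library, PNSB2 in 5 and PSB28 in 1, and without wt 2 the counts were 7 for NDH and 8 for photosystem II.

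**Figure D4:**
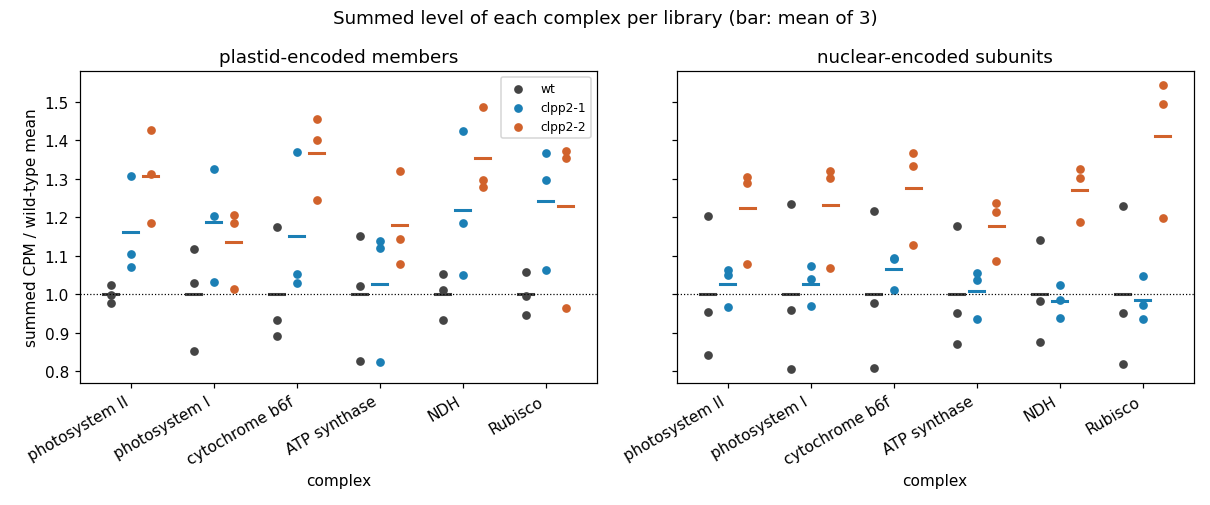
Summed CPM of each complex in each library, divided by the wild-type mean, for the plastid-encoded genes (left) and the nuclear-encoded subunits (right), with 1 point per library and a bar for the mean of 3. The clpp2-2 means lie at 1.14 to 1.37 on the left and 1.18 to 1.41 on the right, while the clpp2-1 means lie at 1.03 to 1.24 on the left and 0.982 to 1.07 on the right.

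For Rubisco, whose large subunit comes from rbcL, 2 of the 4 small subunit genes were called in clpp2-2 and rbcL was not. The 4 small subunit genes ran from log2 0.22 to 0.91 there, beside 0.30 for rbcL. RBCS2B had 185, 261 and 181 CPM in the wild type, 200, 223 and 193 CPM in clpp2-1, and 344, 420 and 409 CPM in clpp2-2. It rose in clpp2-2 (log2 0.91, SE 0.145, adjusted p = 0.0102), as did RBCS3B (log2 0.72, SE 0.173, adjusted p = 0.0366). RBCS2B was called in each of the 9 fits that left out 1 library and RBCS3B in 1, and no small subunit gene was called without wt 1 and clpp2-1 1. These are near-identical neighbours, so how reads were divided between them is uncertain.

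Nuclear genes for the plastid transcription and RNA machinery were also called in clpp2-2. Of 20 genes for sigma factors and polymerase-associated proteins 7 rose in clpp2-2 and 0 fell, beside 5.50% and 4.57% of all genes, with a median log2 fold change of 0.34. SIG4, a sigma factor known in Arabidopsis to serve the ndhF promoter, had 1.55, 1.39 and 1.70 CPM in the wild type, 1.58, 1.80 and 1.63 CPM in clpp2-1, and 3.62, 4.07 and 3.70 CPM in clpp2-2. It rose in clpp2-2 (log2 1.3, SE 0.152, adjusted p = 0.00272) and differed between the lines (log2 1.18, SE 0.151, adjusted p = 0.00633), while ndhF had log2 0.23 in clpp2-2 (SE 0.119, adjusted p = 0.231). PAP1, PAP3 and PAP6, proteins bound to the bacterial-type polymerase, rose by log2 0.42, 0.43 and 0.52 in clpp2-2 (adjusted p = 0.0152, 0.0117 and 0.0133), and PAP1 and PAP3 also differed between the lines (log2 0.34 and 0.38, adjusted p = 0.0471 and 0.0281). PAP4, PAP10 and PAP12 were the others that rose. SIG4 and PAP3 were called in each of the 9 fits that left out 1 library, and PAP1 and PAP6 in 6. The count of 7 became 2 without wt 1 or clpp2-2 2, 3 without wt 3, 4 without clpp2-2 3, 14 without wt 2, and 1 without wt 1 and clpp2-1 1.

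Of 11 genes for plastid RNA processing and turnover 4 rose in clpp2-2 and 0 fell, beside 5.50% and 4.57% of all genes, with a median log2 fold change of 0.28. RNJ, the plastid ribonuclease J, had 55.1, 65.9 and 57.5 CPM in the wild type, 57.5, 66.4 and 64.0 CPM in clpp2-1, and 82.2, 82.7 and 80.7 CPM in clpp2-2 (log2 0.46, SE 0.0753, adjusted p = 0.0110). It differed between the lines (log2 0.39, adjusted p = 0.0307), as HCF107 did (log2 0.44, adjusted p = 0.0338). HCF107, which protects the psbH messenger, rose by log2 0.39 (SE 0.0889, adjusted p = 0.0316), beside log2 0.57 for psbH (SE 0.288, adjusted p = 0.229). MRL1, which stabilises the rbcL messenger, rose by log2 0.38 (SE 0.0926, adjusted p = 0.0390), and RNR1, an exoribonuclease that trims 3′ ends, by log2 0.27 (SE 0.0650, adjusted p = 0.0384). RNJ was called in each of the 9 fits that left out 1 library, HCF107 in 3, MRL1 in 2 and RNR1 in 1. The count of 4 became 1 without wt 1, wt 3, clpp2-1 3 or any 1 of the clpp2-2 libraries, 2 without clpp2-1 1, and 8 without wt 2. Of the 4 root genes RSH2 alone was called, lower in clpp2-2 (log2 -0.63, SE 0.130, adjusted p = 0.0237), and it was called in 4 of the 9 fits that left out 1 library. The 6 tested seed storage genes were called in neither line. In clpp2-2, however, all 6 had an unadjusted p under 0.05, beside 5991 of all 20294 genes tested, with log2 fold changes of -8.45 to -4.37. In clpp2-1, 0 genes of the polymerase, RNA processing, root and seed storage lists were called by edgeR. At an unadjusted p under 0.05 there were 0 as well, beside 1306 of all 20294 genes tested.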

How the data were processed

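The deposited table holds expected counts: whole-number estimates of reads per gene, with every row summing to at least 10 over the 9 libraries. The submitters' processing notes list FastQC, Salmon 0.14.0, DESeq, DESeq2 and TAIR10 without saying what each was used for. Library totals are nearly equal, which leaves scaling by the authors before deposit possible. Such scaling would make comparisons with counting error approximate.

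edgeR 4.0.16 (R 4.3.3) was applied to the counts. The filterByExpr step kept 20294 genes and removed 1960, and TMM factors were 0.974 to 1.025. The 4 contrasts came from a single quasi-likelihood fit over the 9 libraries, with Benjamini-Hochberg adjustment over all genes of a contrast and a threshold of 0.05. CPM are counts over TMM-scaled library sizes. A standard error is the size of the log2 fold change divided by the square root of its F statistic. Complex sums, shares and levels per kilobase are descriptions. Coding lengths, positions and sequences came from RefSeq TAIR10.1, and copies were sought with BLAST 2.17.0. Tables and plots used Python 3.11.15, pandas 2.3.3, NumPy 2.4.6 and matplotlib 3.10.9.

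Members, lists and tests were chosen with earlier results of these data known. Values were given per library for CLPP2, for up to 4 called genes per complex by smallest adjusted p and for the most abundant gene of each. Outside this rule they were also given for psbA. Up to 4 called genes of each other list were named by the same order, with per-library values for NDHO, RBCS2B, SIG4 and RNJ only. PAP4, PAP10, PAP12, psbA, psaA, psbE, psbF, psbT, psbN, psaI, atpE, ndhF and psbH were named for their role or place after their values were seen. Alternatives were DESeq2 1.42.0 size factors and its Wald test, no filter, limma-voom (limma 3.58.1), the replicate number as a block, only the groups compared, library sizes without organelle genes or from plastid genes only, 2 libraries left out together and each library left out in turn.

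The labels number replicates without saying whether a number marks a shared culture. Over 11806 genes of at least 10 CPM, deviations of same-numbered libraries correlated at 0.253, 0.210 and 0.115 for clpp2-1 with the wild type, at 0.0612, 0.0872 and -0.00569 for clpp2-2 with the wild type, and at -0.169, -0.00995 and -0.179 for the 2 lines. Same-numbered libraries were thus positively correlated at every number for clpp2-1 with the wild type only. The main fit nevertheless used genotype alone in every contrast. The fit with the replicate number as a block covered all 9 libraries, and for clpp2-1 it also called 0 photosynthesis genes. No 2 libraries of 1 genotype agreed within counting error (chi-square per gene 6.26 to 32.0).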

Additional observations from a re-analysis of the deposited data

How the results depend on the processing

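The count of photosynthesis genes called higher in clpp2-1, 0, was 2 with the DESeq2 Wald test and 0 in each fit that left out 1 library. In clpp2-2, 8 were called, 5 with only the groups compared, 0 with library sizes from plastid genes only, 2 without wt 1 and clpp2-1 1, and 2 to 9 in the fits that left out 1 library. It was 2 without wt 1, wt 3, clpp2-2 1 or clpp2-2 3, and 3 without clpp2-1 3 or clpp2-2 2. Over all genes 2044 were called, 502 to 4242 in the fits that left out 1 library, 727 without wt 1 and clpp2-1 1, 1216 with only the groups compared and 8000 with library sizes from plastid genes only. The count was 8 with DESeq2 size factors or library sizes without organelle genes, 8 with limma-voom (ndhE in place of ndhG), 7 with no filter, and 11 with the DESeq2 Wald test. For both lines together, 2 were called, 7 with the DESeq2 Wald test, 0 with library sizes from plastid genes only, 0 without wt 1 and clpp2-1 1, and 0 to 6 in the fits that left out 1 library. Between the lines, 0 were called, 1 with the DESeq2 Wald test, and 0 to 1 in the fits that left out 1 library, where psbC was called without clpp2-1 2. No gene was called lower in any of these fits, and no called fold change reversed its sign. With the replicate number as a block the counts were 0 in clpp2-1, 7 in clpp2-2 (without ndhG), 1 for both lines (without ndhH) and 0 between the lines. With library sizes from plastid genes only, the fold changes in clpp2-2 fell to log2 0.18 for psbC (adjusted p = 0.313) and 0.22 for ndhH (adjusted p = 0.171). The cause of these changes was not tested. Low counts limit 18 of the 44 genes, which have under 100 counts in some library.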
